A study of Mus musculus with 4 samples.

Results

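A set of 9 transcription factor genes that pattern the midbrain and its border with the hindbrain, of 55487 genes counted, were followed in poly(A) RNA of calvaria, the roof of the skull, from E14.5 mouse embryos (midgestation). They were En1, En2, Otx1, Otx2, Gbx2, Tal2, Bhlhe23, Gata2 and Gata3, and 9 of 9 were found in the table by matching Ensembl gene IDs to GENCODE symbols. Frontal bone gave 2 libraries, and another 2 were made from parietal with interparietal bone, which the labels give as 1 tissue. Labels name no strain, sex, genotype or treatment for either group, and they do not say how many embryos a library holds or whether those of a group are from separate embryos. The p-values therefore reflect only how these libraries spread, and that spread may be technical. The members were chosen by their measured frontal against parietal-interparietal differences in these same libraries, so their own differences are a description and are given without p-values.

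In the early neural tube, OTX proteins mark the forebrain and midbrain and GBX2 marks the anterior hindbrain. The border where they meet becomes a signalling centre, the isthmic organizer, which secretes FGF8 and WNT1 and keeps the engrailed genes En1 and En2 active in midbrain and anterior hindbrain. Later, GATA2, TAL2 and GATA3 take part in forming the inhibitory (GABAergic) neurons of the midbrain. Several of these genes are also used elsewhere: En1 in dermis and skull mesenchyme, Gata2 in blood and vessels, Gata3 in skin, sympathetic neurons and the inner ear, and Otx1 in cerebral cortex and inner ear. Because whole tissue was sequenced, fewer cells of a type and less RNA per cell cannot be told apart.

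The libraries held between 24069177 and 35555013 assigned counts. Levels are given as CPM, each count as a rate of its library size, scaled by the trimmed mean of M-values, and each log2 difference is the fitted log2 fold change of frontal over parietal-interparietal. Across all genes, 20947 passed a filter on low counts, and 12.7% of them were called at an adjusted p under 0.05 (edgeR's quasi-likelihood test), 6.25% as higher and 6.44% as lower in frontal libraries. Higher genes were 49.3% of the calls, and 38% where libraries were scaled by total count alone. The bone collagen gene Col1a1 was abundant in all libraries, at 994 and 967 CPM in frontal, against 1490 and 1503 CPM in parietal-interparietal libraries. Pan-neuronal genes were present as well and differed in both directions. Nefm, a neurofilament gene, had 60.7 and 57.9 CPM in frontal, against 134 and 134 CPM in parietal-interparietal libraries, while Map2, which encodes a microtubule-associated protein, had 158 and 162 CPM in frontal, against 119 and 115 CPM in parietal-interparietal libraries. RNA of neurons was thus present in both groups of a tissue labelled as bone.

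Promoter sequences of the members were taken from RefSeq (build GRCm38.p6), in which 7 of the 9 genes had an entry, with 11 annotated start sites in all. The 250 bases before the start are shown for En1 and Tal2, which lie on different chromosomes and were both lower in frontal libraries, with each CG pair in capitals, and for one start site of Otx2, which showed no such difference, with homeodomain and GATA-type letters in capitals. Each is written 5′ to 3′ on the strand of its gene.
En1 (chr1:120602237-120602486, plus strand): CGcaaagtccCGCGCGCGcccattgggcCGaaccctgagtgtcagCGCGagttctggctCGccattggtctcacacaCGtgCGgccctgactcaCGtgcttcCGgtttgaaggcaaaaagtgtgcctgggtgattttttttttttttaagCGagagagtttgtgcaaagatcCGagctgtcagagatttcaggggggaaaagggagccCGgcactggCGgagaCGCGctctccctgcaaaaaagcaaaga
Tal2 (chr4:53779451-53779700, plus strand): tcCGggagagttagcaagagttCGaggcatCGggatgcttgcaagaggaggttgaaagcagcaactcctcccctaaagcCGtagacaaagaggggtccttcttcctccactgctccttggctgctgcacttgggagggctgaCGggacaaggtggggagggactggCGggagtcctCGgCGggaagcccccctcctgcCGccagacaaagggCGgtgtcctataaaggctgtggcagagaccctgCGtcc
Otx2 (chr14:48665110-48665359, minus strand): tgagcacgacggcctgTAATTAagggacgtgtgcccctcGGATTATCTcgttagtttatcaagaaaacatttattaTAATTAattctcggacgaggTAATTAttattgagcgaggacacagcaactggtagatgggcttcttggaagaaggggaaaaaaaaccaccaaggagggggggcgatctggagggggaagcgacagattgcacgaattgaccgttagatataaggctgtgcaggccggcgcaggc

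The En1 window held 19 CG pairs and the Tal2 window 11. The 4 Otx2 windows held 6, 8, 9 and 14, and the other 7 member windows between 11 and 24. The median over all 32851 RefSeq windows of this length was 6, and 35.6% of them held at least 11. Short motifs were searched on both strands. TAATTA, a core bound by many homeodomain proteins, was in 2 of 11 member windows against 4.84% of all windows, and both were Otx2 starts. Of all windows, 0.0487% held TAATTA at 3 or more places. The Otx2 window shown held it at 3 places, the most of the 4 Otx2 windows, against 1, 0 and 0 in the others. It also held TAATCC, the core bound by OTX proteins, read on the other strand as GGATTA, which was in 1 of 11 member windows and 6.25% of all windows. These letters overlap TTATCT, the reverse of the GATA motif AGATAA, which was in 2 member windows, both Otx2 starts, and in 9.99% of all windows. CAGATG, a motif bound by helix-loop-helix proteins of the TAL family, was in 1 member window and 14.4% of all windows. A match describes the letters only, and the windows say nothing of binding in these samples.

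The engrailed genes were both lower in frontal libraries, and En2 had the larger difference. En2, a homeodomain factor of midbrain and cerebellum (ENSMUSG00000039095, GRCm38 chromosome 5, 28165694 to 28172166), had 17 and 38 counts in frontal libraries 1 and 2, or 0.591 and 1.08 CPM, against 345 and 405 counts, or 14.1 and 14.9 CPM, in parietal-interparietal libraries 1 and 2. All frontal values lay far below all parietal-interparietal values, a 17.0-fold difference (log2 difference −4.09 ± 0.27, SE, n = 2 each). En1, its paralog (ENSMUSG00000058665, chromosome 1, 120602418 to 120607992), had 188 and 205 counts in the frontal libraries, or 6.54 and 5.82 CPM, against 350 and 441 counts, or 14.3 and 16.3 CPM, in the parietal-interparietal libraries. The groups did not overlap, and En1 was 2.48-fold lower in frontal libraries (−1.31 ± 0.16).

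The pair therefore differed in its makeup as well as in its level. Per kilobase of exon, En2 made up 6.28% and 12.1% of the En1 and En2 level in the frontal libraries, against 42.2% and 40.5% in the parietal-interparietal libraries. Engrailed RNA of frontal libraries was thus mostly En1, while in the others En2 was a larger share of it.

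The OTX genes behaved unlike each other. Otx1 (ENSMUSG00000005917, chromosome 11, 21994764 to 22002897), a factor of the forebrain and midbrain that is also known from deep-layer cortical neurons, had 646 and 624 counts in frontal libraries, or 22.5 and 17.7 CPM, against 174 counts in each parietal-interparietal library, or 7.12 and 6.41 CPM. It was the one member with a clear excess in frontal libraries, 2.97-fold (log2 difference 1.57 ± 0.17). Otx2 (ENSMUSG00000021848, chromosome 14, 48657677 to 48673819), which is needed to form forebrain and midbrain and is later used in choroid plexus and retina, had 25.8 and 37.3 CPM in frontal, against 29.4 and 34.6 CPM in parietal-interparietal libraries.

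The Otx2 values of the groups overlapped, with the lowest and the highest both in frontal libraries (log2 difference −0.02 ± 0.16). Its frontal libraries differed 1.45-fold from each other, and the estimate followed them. It was −0.32 ± 0.11 and called lower when frontal library 2 was left out, and 0.22 ± 0.10 and not called when frontal library 1 was left out. In both of these fits the single frontal library is assumed to vary like the parietal-interparietal pair, which alone supplies the spread. Otx1 made up 40.4% and 27.0% of the pair's level per kilobase in frontal libraries, against 15.9% and 12.6% in parietal-interparietal libraries.

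Gbx2, the factor of the hindbrain side of the border (ENSMUSG00000034486, chromosome 1, 89927956 to 89931179), was hardly detected. It had 8 and 6 counts in frontal libraries, against 8 and 8 in parietal-interparietal libraries, did not pass the filter on low counts and was not tested. A count of 8 carries a 95% exact Poisson interval of 3.45 to 15.8 and a count of 6 one of 2.20 to 13.1, which cover counting error only. A small difference would therefore not be detectable at this depth. Low counts in these libraries were mostly even, as they would be if both mates of a read pair were counted, and the intervals are too narrow if so. Gbx2 was low in both groups, while Otx2 was the most abundant member per kilobase.

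Among the factors of midbrain inhibitory neurons, Tal2 and Gata3 were lower in frontal libraries and Gata2 showed no clear difference. Tal2, a basic helix-loop-helix factor needed for midbrain GABAergic neurons (ENSMUSG00000028417, chromosome 4, 53779705 to 53788712), had 42 and 103 counts in frontal libraries, or 1.46 and 2.92 CPM, against 334 and 464 counts, or 13.7 and 17.1 CPM, in parietal-interparietal libraries. It was 6.90-fold lower (log2 difference −2.79 ± 0.28), and the groups stood well apart although each pair of libraries also differed, 2.0-fold in frontal and 1.25-fold in parietal-interparietal libraries.

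Gata3, a zinc finger factor of the same neurons (ENSMUSG00000015619, chromosome 2, 9857078 to 9890034), had 6.47 and 8.77 CPM in frontal, against 23.0 and 24.3 CPM in parietal-interparietal libraries, 3.09-fold lower without overlap (−1.63 ± 0.16). Gata2, which acts upstream in those neurons and is best known from blood progenitors and endothelium (ENSMUSG00000015053, chromosome 6, 88193891 to 88207032), had 8.90 and 10.5 CPM in frontal, against 9.74 and 10.2 CPM in parietal-interparietal libraries. Its groups overlapped (−0.04 ± 0.17). Gata3 was 49.6% and 53.2% of the pair's level per kilobase in frontal libraries, so the 2 GATA genes were about equal there, and 76.2% and 76.4% in parietal-interparietal libraries.

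Bhlhe23, a helix-loop-helix factor of the olig family with roles in retina and brain (ENSMUSG00000045493, chromosome 2, 180774381 to 180776900), was the scarcest member past the filter. It had 3 and 14 counts in frontal libraries, against 54 and 48 counts in parietal-interparietal libraries, or 0.104 and 0.398 CPM against 2.21 and 1.77 CPM. The exact Poisson intervals were 0.619 to 8.77 and 7.65 to 23.5 counts in frontal libraries and 40.6 to 70.5 and 35.4 to 63.6 counts in parietal-interparietal libraries, and they too are too narrow if mates were counted separately. Its log2 fold change of −2.92 ± 0.65 had the widest error of the 8 tested members, and its call was lost with parietal-interparietal library 1 left out or its pair summed as 1 sample.

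**Figure D1:**
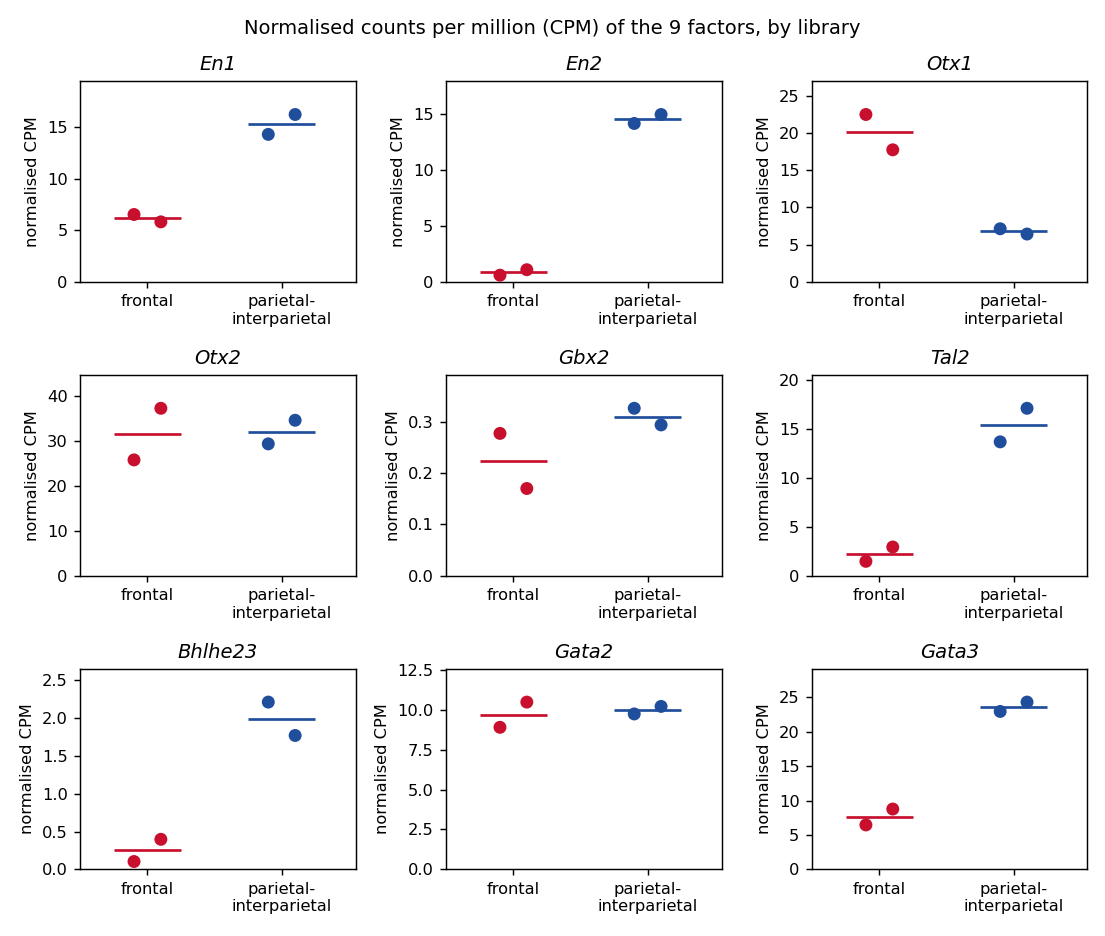
Normalised CPM of each of the 9 factors in the 4 libraries, with the horizontal lines at the mean of each group (n = 2) and the vertical axes starting at 0. En1, En2, Tal2, Bhlhe23 and Gata3 sat lower in frontal libraries, Otx1 sat higher, and the points of Otx2 and Gata2 overlapped; Gbx2 stayed under 0.4 CPM throughout.

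Counted over the list, 8 of 9 members were tested, 5 were called lower, 1 higher and 2 were not called, beside 12.7% of all tested genes called. Since the members were chosen with this contrast known, nothing is read from that share. Values of 7 of 9 members did not overlap between groups, Gbx2 among them, beside 57.3% of all tested genes. Frontal library 2 stood above frontal library 1 for 6 of 9 members, beside 50% of tested genes, and the 3 exceptions were En1, Otx1 and Gbx2. The ratio of frontal library 2 to 1 was 3.81 for Bhlhe23, 2.0 for Tal2 and 1.83 for En2, the members with the lowest frontal levels past the filter, against 0.891 for En1 and 0.789 for Otx1. The frontal libraries thus varied among themselves most for the genes that were scarce there, while the parietal-interparietal libraries stayed within 1.25-fold of each other for these 9 genes.

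**Figure D2:**
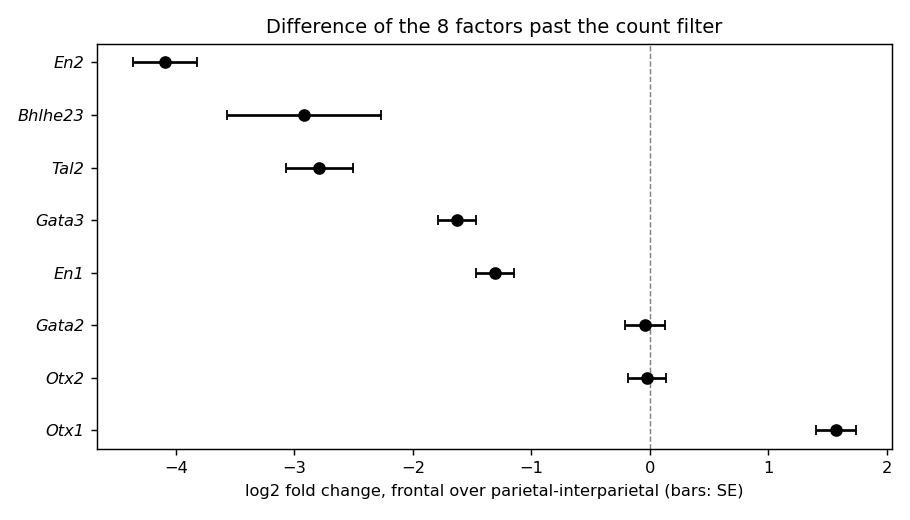
Log2 fold change of frontal over parietal-interparietal for the 8 factors past the count filter, with bars of 1 SE from the edgeR fit (n = 2 each). Estimates ran from −4.09 for En2 to 1.57 for Otx1, with Otx2 and Gata2 at −0.02 and −0.04.

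Levels of different genes were compared per kilobase of exon, using GENCODE exon lengths. In frontal libraries the order by mean CPM per kilobase was Otx2 at 7.48, Otx1 at 3.71, En1 at 2.36, Gata3 at 1.92, Gata2 at 1.80, Tal2 at 0.738, En2 at 0.236, Gbx2 at 0.103 and Bhlhe23 at 0.0996. Of the neighbours in that order, Gata3 and Gata2 overlapped in their libraries, as did Gbx2 and Bhlhe23. In parietal-interparietal libraries the order was Otx2 at 7.58, Gata3 at 5.94, En1 at 5.83, Tal2 at 5.18, En2 at 4.10, Gata2 at 1.85, Otx1 at 1.25, Bhlhe23 at 0.789 and Gbx2 at 0.143. There Gata3 overlapped En1 and En1 overlapped Tal2. Otx2 led in both groups, while Otx1 ranked second in frontal libraries and seventh in the others.

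**Figure D3:**
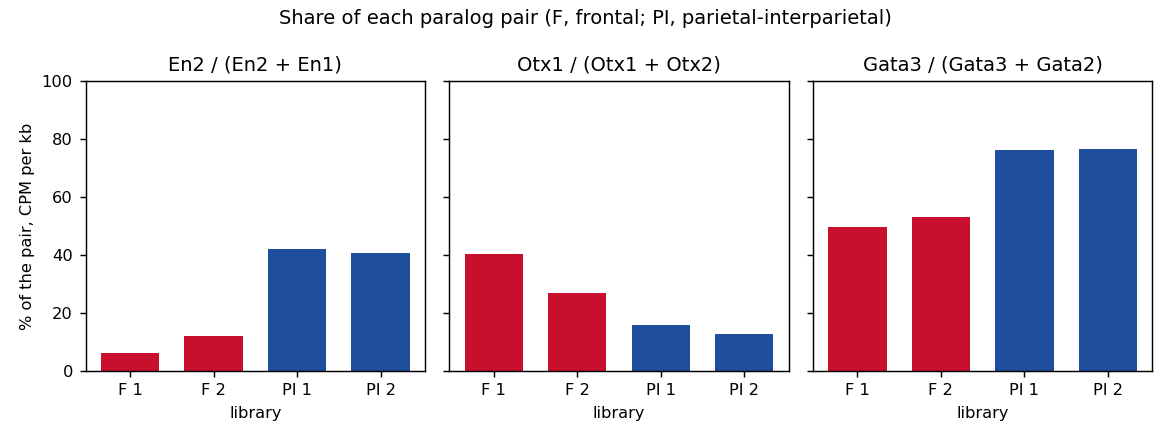
Share of the first-named gene in the summed level of each paralog pair, in percent of CPM per kilobase, for frontal libraries (F 1 and F 2) and parietal-interparietal libraries (PI 1 and PI 2); each bar is 1 library. En2 made up at most 12.1% of the engrailed pair in frontal and at least 40.5% in parietal-interparietal libraries, Otx1 a larger part of its pair in frontal libraries, and Gata3 a larger part of its pair in parietal-interparietal libraries.

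The genes with the most similar profiles were sought among 14224 protein-coding genes averaging 1 CPM or more. The measure was the root mean square (RMS) difference of mean-centred log2 of CPM plus 0.5 over the 4 libraries. Adding 0.5 CPM shrinks the differences of scarce genes, so a small RMS difference does not mean an equal fold change. Nearest to En2 were Tectb, Tecta and Cnpy1, at RMS differences of 0.212, 0.437 and 0.579 log2 units. Tectb and Tecta encode tectorins, known as proteins of the inner ear's tectorial membrane, and Cnpy1 encodes a canopy protein that in zebrafish promotes FGF signalling at the border of midbrain and hindbrain. Tecta (0.207) and Cnpy1 (0.285) were also the nearest to Tal2, followed by the otogelin-like gene Otogl (0.300). Tectb had 0.348 and 0.398 CPM in frontal, against 7.16 and 8.95 CPM in parietal-interparietal libraries.

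Other members had other neighbours in profile. Among the nearest to En1 were Galnt9 (0.047), which encodes a glycosyltransferase, and Zdhhc22 (0.049), which encodes a palmitoyltransferase. Nearest to Gata3 were the POU factor gene Pou3f1 (0.046), Rgs14 (0.048) and the otoancorin gene Otoa (0.071). Rgs14, a scarce gene, had a log2 fold change of −2.24, against −1.63 for Gata3. Nearest to Bhlhe23 were the myosin light chain gene Myl3 (0.028), Ppp1r17 (0.073) and the LIM homeodomain gene Isl2 (0.078). Their log2 fold changes were −1.79, −2.13 and −1.82, against −2.92 for Bhlhe23, so these matches do not hold for the size of the difference. Nearest to Otx1 was the numbered gene model D430041D05Rik (0.058), then the kinesin gene Kif21b (0.087). A profile of 4 points holds little information, and how many genes lie this close to a given pattern was not counted.

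The genes next to the members on the chromosome mostly showed smaller differences. Of 18 flanking protein-coding genes, 15 were tested and 3 were called, all lower in frontal libraries, beside 6.44% of tested genes called lower. Cnpy1 lies 28.7 kb from En2 on the opposite strand. It had 4.59 and 4.86 CPM in frontal, against 25.9 and 28.5 CPM in parietal-interparietal libraries (log2 difference −2.52 ± 0.15, n = 2 each, adjusted p = 5.44e-06 by edgeR). Insig1, the neighbour of En2 on the other side and a regulator of cholesterol synthesis, had 28.6 and 30.6 CPM in frontal, against 26.3 and 25.9 CPM in parietal-interparietal libraries (log2 difference 0.18 ± 0.11, adjusted p = 0.325 by edgeR). Agap1 beside Gbx2 and Ythdf1 beside Bhlhe23 were the other called genes, at −0.38 ± 0.08 and −0.54 ± 0.08. Both lost their call with parietal-interparietal library 1 left out or that pair summed, and Agap1 also without parietal-interparietal library 2.

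Some annotated transcripts overlap the members, and without a stated strand setting their reads cannot be told apart from the members' own. The antisense RNA gene Otx2os1 had 43 and 64 counts in frontal, against 62 and 59 counts in parietal-interparietal libraries, which is small beside the Otx2 counts of 718 to 1314. 4930412O13Rik, opposite Gata3, had 2 and 6 counts in frontal, against 18 and 24 in parietal-interparietal libraries. Gm43610, inside En2 on the other strand, had 0 and 1 counts in frontal, against 8 and 6 in parietal-interparietal libraries. Gm49154, on the strand of Otx2, had 14 and 11 counts in frontal, against 0 and 4 in parietal-interparietal libraries. D130058E05Rik, opposite Gbx2, had 10 and 8 counts in frontal, against 16 and 8 in parietal-interparietal libraries. In no library was that fewer than the counts of Gbx2 itself, so the low Gbx2 counts carry this limit as well.

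Genes that work with these factors were read from 5 lists that hold none of the 9 members: isthmic organizer genes, FGF feedback genes, dorsal midbrain genes, GABAergic genes and ventral midbrain genes. Of their 62 tested genes 22 were called lower and 3 higher in frontal libraries (35.5% and 4.84%), beside 6.44% and 6.25% of all tested genes. Their median log2 fold change was −0.50, beside 0.01 over all tested genes. A negative median was not particular to them. Lists for inner ear (−1.71), sympathetic neurons (−1.01), meninges (−0.76) and skeletal muscle (−0.54) had lower ones. Of all 19 lists used, only those for telencephalon, diencephalon and choroid plexus, and retina and lens had positive medians. All gene lists used here, like the members, were chosen with earlier results of these data known. Shares and p-values of list genes are therefore a description and no independent support for the members' differences. The count of 25 called genes was 12 without parietal-interparietal library 1, 10 without parietal-interparietal library 2, 14 with that pair summed, 34 without frontal library 1, 38 without frontal library 2 and 18 in DESeq2.

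Of the 13 isthmic organizer genes, 3 were lower in frontal libraries, 1 was higher and 9 were not called. Pax5, a paired-box factor of the border, had 0 and 4 counts in frontal, against 38 and 38 counts in parietal-interparietal libraries (log2 difference −4.50 ± 0.93, adjusted p = 0.0114 by edgeR). Wnt1, the border's WNT ligand, had 20 and 8 counts in frontal, against 40 and 71 counts in parietal-interparietal libraries (log2 difference −2.23 ± 0.60, adjusted p = 0.0357 by edgeR). Cnpy1 was the third. Both Pax5 and Wnt1 lost their call without either parietal-interparietal library, Pax5 also in DESeq2 and Wnt1 also with that pair summed.

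Sp8, a zinc finger factor of the border that also patterns the forebrain, went the other way, with 3.93 and 4.17 CPM in frontal, against 1.80 and 0.774 CPM in parietal-interparietal libraries (log2 difference 1.66 ± 0.40, adjusted p = 0.0228 by edgeR). It lost its call without parietal-interparietal library 2. Fgf8, the main signal of the organizer, is outside the rule for named genes and was looked at after its values were seen. It had 23 and 13 counts in frontal, against 18 and 6 counts in parietal-interparietal libraries and was not called. It lay under 1 CPM in every library.

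Of 10 FGF feedback and response genes, 4 were called lower and 6 were not called, with a list median of −0.35. Spry2, an inhibitor of receptor tyrosine kinase signalling, had 14.4 and 14.7 CPM in frontal, against 23.5 and 27.8 CPM in parietal-interparietal libraries (log2 difference −0.82 ± 0.13, adjusted p = 0.00322 by edgeR). Spry4, the phosphatase gene Dusp6 and the ETS factor gene Etv5 followed at −0.66 ± 0.13, −0.36 ± 0.09 and −0.34 ± 0.10. Calls of those 3 were lost with either parietal-interparietal library left out or both summed, that of Etv5 also in DESeq2, and that of Spry2 without parietal-interparietal library 2. These genes report FGF signalling in many tissues and are not specific to the brain.

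Dorsal midbrain genes had the lowest list median of the 5, at −0.94, with 8 of 13 called lower and 5 not called. Barhl1, a homeodomain factor of dorsal midbrain and cerebellar neurons, had 2.71 and 2.33 CPM in frontal, against 14.1 and 12.7 CPM in parietal-interparietal libraries (log2 difference −2.41 ± 0.20, adjusted p = 6.39e-05 by edgeR). Pou4f1, a POU factor of tectal and sensory neurons, had 6.71 and 6.62 CPM in frontal, against 23.1 and 23.1 CPM in parietal-interparietal libraries (log2 difference −1.79 ± 0.14, adjusted p = 3.99e-05 by edgeR). Pax7, a paired-box factor of the tectum that also marks muscle progenitors, was at −1.04 ± 0.16. The ephrin genes Efna2 and Efna5, whose products guide retinal axons across the tectum, were at −1.04 ± 0.14 and −0.61 ± 0.09. Of these 5, Efna5 lost its call, without parietal-interparietal library 1.

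GABAergic genes were less uniform, with 4 of 14 lower, 1 higher and 9 not called. Nkx2-2 and Nkx6-2, homeodomain factors of ventral neural progenitors, were both called lower. Nkx2-2 had 2 and 2 counts in frontal libraries, against 20 and 17 in the others (−3.44 ± 0.91, adjusted p = 0.0331 by edgeR). Nkx6-2 had 2 and 10 counts in frontal libraries, against 38 and 53 in the others (−3.23 ± 0.70, adjusted p = 0.0135 by edgeR). Helt, a factor that selects the GABAergic fate in midbrain, had 12 and 6 counts in frontal, against 32 and 45 counts in parietal-interparietal libraries (−2.35 ± 0.65). Tal1, a relative of Tal2 that blood cells also use, was at −0.62 ± 0.18, and Zfpm2, which encodes the GATA cofactor FOG2, was higher at 0.99 ± 0.20. The 4 lower calls were lost in DESeq2, with the parietal-interparietal pair summed or its library 2 left out, and those of Nkx2-2, Helt and Tal1 also without library 1. Nkx2-2 lost its call without frontal library 1 and with counts halved as well, and Zfpm2 without parietal-interparietal library 2.

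Of 12 ventral midbrain and dopaminergic genes, 3 were lower, 1 was higher and 8 were not called. Isl1, a LIM homeodomain factor of motor and sensory neurons, had 10.2 and 12.0 CPM in frontal, against 35.7 and 35.2 CPM in parietal-interparietal libraries (log2 difference −1.67 ± 0.13, adjusted p = 3.99e-05 by edgeR). Th, which encodes tyrosine hydroxylase, was at −1.37 ± 0.19 and Nkx6-1, a ventral progenitor factor, at −1.74 ± 0.41. Nr4a2, a nuclear receptor of dopaminergic neurons that cortex also expresses, was higher at 0.75 ± 0.19. Calls of Nkx6-1 and Nr4a2 were lost with either parietal-interparietal library left out or both summed.

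**Figure D4:**
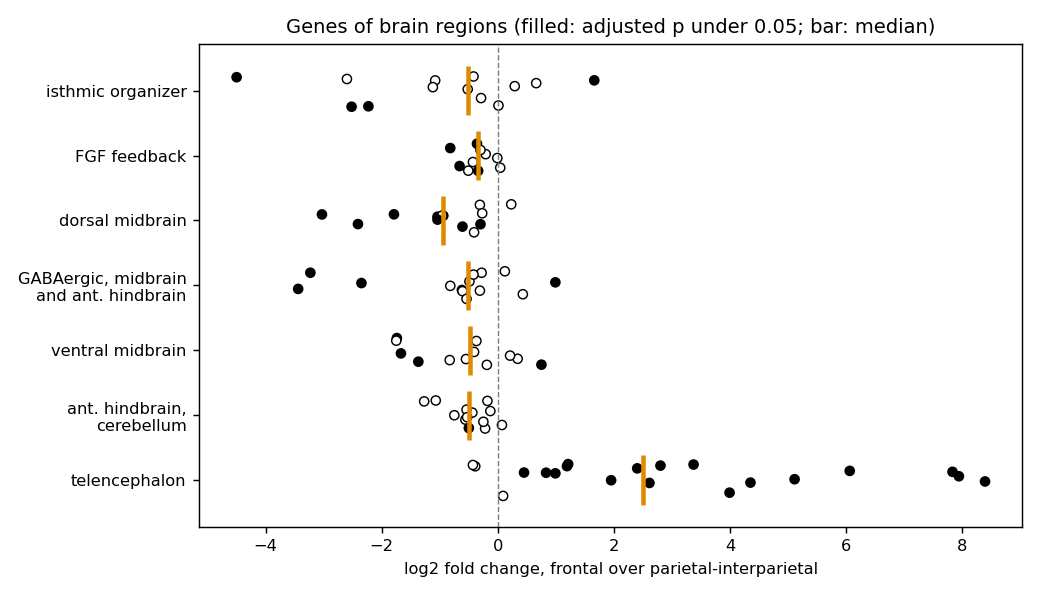
Log2 fold change of frontal over parietal-interparietal for the tested genes of 7 lists, among them FGF feedback genes, which are not specific to the brain. Each point is 1 gene, filled where its adjusted p was under 0.05 in the edgeR test. Orange bars mark list medians, and vertical scatter was added only to separate points. Medians of the isthmic and midbrain lists and the FGF feedback list lay between −0.94 and −0.35, the latter for FGF feedback genes. That of the telencephalon list lay at 2.5.

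Lists for the neighbouring brain regions had medians opposite in sign to each other, positive for telencephalon and negative for anterior hindbrain and cerebellum. Of 20 tested telencephalon genes 17 were higher in frontal libraries, with a list median of 2.5 and summed levels of 666 and 695 CPM in frontal, against 151 and 148 CPM in parietal-interparietal libraries; Gsx2 was at 0 counts in all 4. The count of 17 was 14 without either parietal-interparietal library. Otx1, which cortex also expresses, moved in the direction of this list, and En1, En2, Tal2, Bhlhe23 and Gata3 moved in the other. The anterior hindbrain and cerebellum list had a median of −0.50, equal to that of the midbrain lists, with 1 of 13 tested genes above 0. Its sums were 206 and 217 CPM in frontal libraries, against 267 and 257 CPM in parietal-interparietal libraries. Only Irx3, a homeodomain factor, was called lower (−0.50 ± 0.11), 1 of 13 beside 6.44% of all tested genes. Its call was lost with either parietal-interparietal library left out or both summed, while 5 genes were called lower without frontal library 1 and 8 without frontal library 2. Pan-neuronal genes summed to 1353 and 1342 CPM in frontal, against 1479 and 1496 CPM in parietal-interparietal libraries. Of these 15 genes 6 were lower, 3 higher and 6 not called, and 4 were lower and 1 higher with either parietal-interparietal library left out or both summed.

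Markers of other tissues that use the same factors also differed, and their part in the members' differences was not tested. Beside Gata3, 8 of 11 tested inner ear genes were lower in frontal libraries, with list sums of 101 and 94.7 CPM in frontal, against 190 and 183 CPM in parietal-interparietal libraries. Oc90 alone had 63.7 and 57.7 CPM of the frontal sums and 90.5 and 87.0 CPM of the parietal-interparietal sums. Hmx2 (0.75 ± 0.65), Pou4f3 (−0.89 ± 0.42) and Myo7a (−0.07 ± 0.13) were not called, and Hmx3 was not tested. Otx1, which the inner ear also uses, moved opposite to this list, at 1.57 ± 0.17. Sympathetic neuron genes were lower in 3 of 6 and higher in 1, with sums of 24.4 and 29.1 CPM in frontal, against 61.3 and 62.6 CPM in parietal-interparietal libraries. Of the 3 lower genes Th and Isl1 are also on the ventral midbrain list, and Isl1 alone had 35.7 and 35.2 CPM of the parietal-interparietal sums. The third, Dbh, lost its call with either parietal-interparietal library left out or both summed. Hand2, the higher gene, lost its call with total-count scaling, without parietal-interparietal library 1 and with both summed. Epidermis genes were lower in 3 of 13, with sums of 917 and 879 CPM in frontal, against 1016 and 999.5 CPM in parietal-interparietal libraries. All 3 of those epidermis calls were lost with parietal-interparietal library 1 left out or both summed, 1 was left without parietal-interparietal library 2, and 8 genes were lower without either frontal library.

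Beside En1, 7 of 9 meninges genes were lower, with sums of 571 and 621 CPM in frontal, against 889 and 888 CPM in parietal-interparietal libraries. Among these, Foxc1 and Foxd1 lost their calls with either parietal-interparietal library left out or both summed. Skull osteoprogenitor genes were lower in 4 of 13 and higher in 1, with sums of 1633 and 1653 CPM in frontal, against 2227 and 2257 CPM in parietal-interparietal libraries, of which Col1a1 is the larger part. Dermis genes were lower in 3 of 7 and higher in 1 (626 and 630 CPM in frontal libraries against 811 and 793 CPM in parietal-interparietal libraries). The higher one, Crabp1, lost its call with total-count scaling, with either parietal-interparietal library left out and with both summed. Skeletal muscle genes were lower in 7 of 10 (1712 and 1618 CPM in frontal libraries against 2234 and 2218 CPM in parietal-interparietal libraries). The count of lower muscle genes was 3 without parietal-interparietal library 1, 4 without library 2 and 4 with both summed, and that of dermis genes was 1 in each of those fits. Lower skull genes numbered 2 without parietal-interparietal library 2 and with both summed, and higher ones numbered 4 without frontal library 1 and 3 without frontal library 2.

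Beside Gata2, blood and mast cell genes summed to 136 and 172 CPM in frontal, against 208 and 203 CPM in parietal-interparietal libraries, with 3 of 10 tested genes lower, and endothelium genes to 401 and 405 CPM in frontal, against 497 and 481 CPM in parietal-interparietal libraries, with 1 of 10 lower. The 3 blood and mast cell calls were all lost with either parietal-interparietal library left out or both summed, and were 6 without frontal library 2, where 5 endothelium genes were lower; without frontal library 1 endothelium had 3 lower and 1 higher. Beside Otx2, diencephalon and choroid plexus genes were higher in 5 of 11 and lower in 2, with sums of 881 and 910 CPM in frontal, against 147 and 142 CPM in parietal-interparietal libraries. Most of the frontal sums was Ttr, the choroid plexus transthyretin gene, at 748 and 778 CPM in frontal, against 29.6 and 25.7 CPM in parietal-interparietal libraries (log2 difference 4.79 ± 0.10, adjusted p = 2.91e-09 by edgeR). Folr1, Clic6, Wnt8b and Six6 were the other higher genes, and Tcf7l2 (−0.49 ± 0.09) and Irx5 (−0.94 ± 0.13) the lower ones. Of these, Six6 and Tcf7l2 lost their calls with either parietal-interparietal library left out or both summed. Sim1, Rax and Barhl2 had negative differences and Kcnj13 a positive one, all without a call. The list joins 2 tissues, so its sum describes neither alone. Retina and lens genes were nearly absent, with 2 of 9 tested and 8 of 9 under 1 CPM on average. Rlbp1, which glia also express, was the exception.

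**Figure D5:**
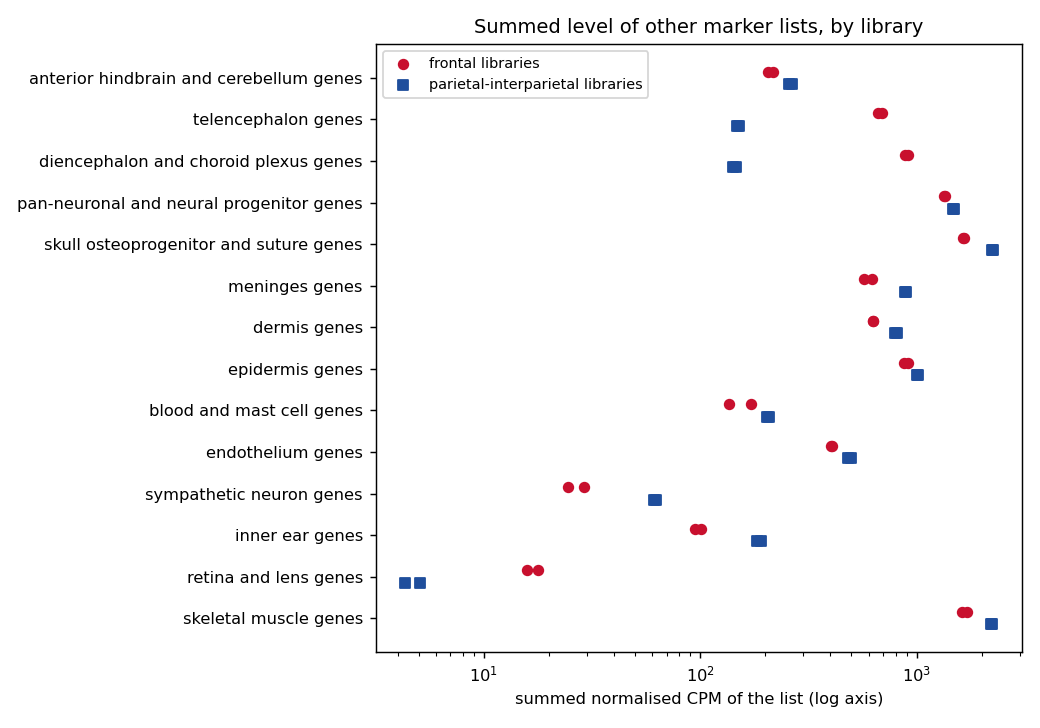
Summed normalised CPM, on a log axis, of 14 marker lists for other brain regions and tissues, with frontal libraries as red circles above parietal-interparietal libraries as blue squares. The telencephalon, diencephalon and choroid plexus, and retina and lens lists summed higher in frontal libraries, and the other 11 summed lower. Ttr was most of the diencephalon and choroid plexus sum in frontal libraries.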

How the data were processed

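The authors deposited raw counts, 1 whole number per Ensembl gene and library, for 55487 IDs. Per the submitters' processing notes the tools were HISAT2 2.1.0, Trim Galore 0.6.7 and, for counting, featureCounts 2.0.1, on GRCm38. Settings, annotation release and strand mode: not given in the sources used here. Of counts between 1 and 20, 68.3% to 74.4% per library were even, so counts were also analysed halved.

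IDs were matched to GENCODE M21 (55227 matched, 260 did not). Genes passing filterByExpr (minimum count 10) were TMM-scaled and entered a two-sided edgeR 4.0.16 (R 4.3.3) quasi-likelihood test, with group as the only term, 2 residual degrees of freedom and Benjamini-Hochberg adjustment over all 20947 genes. SE is the absolute log2 fold change over the square root of F. CPM of 3 counts lay between 0.0844 and 0.125 per library. Intervals cover counting error only.

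Members and gene lists were chosen with earlier results of these data known. Named were all members, their flanking and overlapping genes, the 3 genes nearest to each in profile (log2 of CPM plus 0.5), and up to 5 genes per list with the smallest unadjusted p; the text gives a part of these. DESeq2 1.42.0 and the other alternatives are in the closing section. Figures used matplotlib 3.10.9.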

Additional observations from a re-analysis of the deposited data

How the results depend on the processing

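Direction and call of En1, En2, Otx1, Tal2 and Gata3 held with total-count scaling, no filter, halved counts, DESeq2, the replicate block, the parietal-interparietal pair summed and each library left out. The number of members called was 6 and lay between 5 and 7 with a library left out. Log2 fold changes of the members that were not called changed sign with a library left out, between −0.32 and 0.22 for Otx2 (0.10 without parietal-interparietal library 2) and between −0.17 and 0.07 for Gata2. Bhlhe23 lost its call in the 2 settings named above, at −2.77 ± 0.96 and −2.93 ± 0.83. The members were chosen with this contrast known, so all these fits describe the same libraries again and add no independent evidence.

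Calls over the whole table, 2657, lay between 865 and 7279 with a library left out and numbered 791 with the pair summed. Calls in the 5 midbrain lists, 25, lay between 10 and 38 with a library left out and numbered 14 with the pair summed. The cause was not tested, but these fits hold 3 samples, and a group with 1 library left is assumed to vary like the other group.

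Replicate numbers are shared between groups, but deviations of same-numbered libraries correlated at only 0.0206 over tested genes, so the numbers were not taken as pairs. With the replicate block 3306 genes, 6 members and 29 list genes were called. Depth limits Gbx2 and Bhlhe23, and 2 libraries a group limit every test.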
